A study of Mus musculus with 8 samples.

Results

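The growth hormone receptor pathway of liver was examined through 10 genes. These were the receptors Ghr and Prlr, the kinase Jak2, the transcription factors Stat5a and Stat5b, the feedback inhibitors Socs1, Socs2, Socs3 and Cish, and the repressor Bcl6. They were chosen by name, as genes of the receptor, its kinase, its transcription factors and their feedback, with earlier results of these data known. Of the 10 genes, 9 had a probe with that symbol on the array (13 probes) and Prlr had none, so Prlr is not analysed here. Of 8134 genes that could be tested, 7 were from this pathway.

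RNA was from the left lobe of the liver of 8 male C57BL/6N mice aged 8 to 12 weeks, 4 wild type (WT) and 4 Snd1 knockout (KO). They were not fasted and were sampled about midday. The KO mice carry a germline deletion of the first exon of Snd1 in every cell, made with a ubiquitously active Cre and then backcrossed to C57BL/6N, so effects on liver cells and effects through other organs cannot be told apart. Each animal had 1 array (Illumina MouseRef-8 v2.0), named WT 1 to WT 4 or KO 1 to KO 4 by the number in its title.

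Growth hormone binds Ghr on hepatocytes and activates the kinase Jak2, which phosphorylates STAT5. STAT5 then binds DNA at pairs of TTC and GAA separated by a short spacer and switches on genes of growth, such as Igf1, together with its own inhibitors Cish and Socs2. Bcl6 is a repressor that binds similar sites, and in mouse liver it is itself held down by growth hormone through STAT5. In male rodents growth hormone is released in pulses, and the activity of STAT5 in liver follows them. Snd1 has been described as a coactivator of STAT5 in cultured cells. Growth hormone and STAT5 phosphorylation were not analysed here.

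The promoters of the 2 members with the widest differences between animals, Cish and Bcl6, are shown because the results turn on them. RefSeq (GRCm38.p6) windows from 250 bases before to 50 bases after each annotated start were held for 9 of the 10 members (15 windows), and Socs2 had none. Capitals mark TTCNNNGAA, the core of a STAT5 site, which reads the same on both strands. Cish has 1 annotated start and its window lies at chr9:107296409-107296708 on the plus strand. Bcl6 has 2 annotated starts on the minus strand, with windows at chr16:23981234-23981533 and chr16:23988803-23989102.
Cish: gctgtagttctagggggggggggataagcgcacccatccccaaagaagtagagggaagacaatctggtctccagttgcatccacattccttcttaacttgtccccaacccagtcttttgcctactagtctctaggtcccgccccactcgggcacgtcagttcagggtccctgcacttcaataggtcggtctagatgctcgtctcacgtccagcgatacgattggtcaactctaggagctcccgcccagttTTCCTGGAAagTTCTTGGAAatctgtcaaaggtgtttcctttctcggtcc
Bcl6, first window: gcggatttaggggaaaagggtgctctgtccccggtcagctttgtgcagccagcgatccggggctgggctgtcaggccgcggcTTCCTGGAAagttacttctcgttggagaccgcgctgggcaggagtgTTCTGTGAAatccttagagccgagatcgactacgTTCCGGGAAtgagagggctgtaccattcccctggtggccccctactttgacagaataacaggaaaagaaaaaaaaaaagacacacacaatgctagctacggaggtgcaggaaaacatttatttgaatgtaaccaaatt
Bcl6, second window: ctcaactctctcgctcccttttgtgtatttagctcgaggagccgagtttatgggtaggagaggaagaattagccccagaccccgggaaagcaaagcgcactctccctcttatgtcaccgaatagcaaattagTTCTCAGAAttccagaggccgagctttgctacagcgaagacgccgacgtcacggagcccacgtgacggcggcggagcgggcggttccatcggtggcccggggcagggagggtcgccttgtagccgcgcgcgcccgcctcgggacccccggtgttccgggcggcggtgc

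The Cish window held 2 copies of the motif next to each other, with first bases at positions 1 and 12 counted from the annotated start. The first Bcl6 window held 3 copies, at positions -168, -122 and -88, and the second held 1 at position -118. Of all 32851 promoter windows of this length 8.30% held at least 1 copy and 0.457% held 2 or more. Among the other members, Socs3 had 1 copy in its window and 1 of the 3 Prlr windows had 1. The windows of Ghr, Jak2, Stat5a, Stat5b and Socs1 had none, which says only that these letters are not in those windows. A match is a description of the sequence, and binding was not measured.

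Snd1 itself was detected on 4 of 4 WT arrays and on 0 of 4 KO arrays, and was at least 4.90-fold lower in the KO with the background correction used here (limma, adjusted p = 3.03e-07). The fitted log2 difference was -2.59, and it was -1.47 with a larger offset (50) and -1.07 without background correction, called each time. The fold sets the mean of the WT arrays against the lowest level that counted as detected on the KO arrays. Detected means a detection p under 0.05 against the negative control beads of the array. The deposited intensities had arithmetic means from 215 to 290 per array, with KO 1 and KO 4 (215 and 223) dimmer than the other 6 (262 to 290), and the correlation between arrays after normalization was 0.957 to 0.993. On the first principal component (44.5% of the variance) the WT arrays lay between -14.9 and -10.6 and the KO arrays between -7.38 and 32.3. Of the cell type markers tested, 7 of 7 hepatocyte and 7 of 7 stellate cell markers were above 0 in log2 fold change (KO minus WT). Below 0 were 9 of 9 Kupffer cell and 3 of 3 neutrophil markers. The 10 endothelial markers were mixed, with 7 above and 3 below 0. The 1 bile duct marker tested was below 0 and the 1 lymphocyte marker above 0. Over all these marker lists 2 genes passed the test, 1 of the hepatocyte and 1 of the stellate cell markers, beside 2.54% of all genes. The signs also count differences under their SE, such as 0.045 ± 0.096 for Ttr and 0.036 ± 0.14 for Des. Alb (means 4.63 in the WT and 4.79 in the KO) and Col1a1 (4.57 and 4.76) lay near the lowest detected level of 4.44 to 4.61. In whole liver, fewer cells of a type and less RNA per cell cannot be told apart.

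None of the 7 tested members passed the test in the KO. The comparison was made with limma on normalized log2 intensity over all 8134 genes with Benjamini-Hochberg adjustment, and adjusted p-values under 0.05 counted as calls. Over all genes 207 were called (96 higher and 111 lower), which is 2.54%, and 0 of 7 members does not stand apart from that share. The percentage of calls that were higher was 46.4%, and it was 14.4% of 97 calls when arrays were scaled to equal medians in place of quantile normalization. The groups of 4 did not overlap for 0 of the 7 members, and for 10.8% of all genes. Without adjustment 1 member, Cish, had a p under 0.05, as did 17.4% of all genes. The median log2 fold change was 0.062 over the members and -0.0014 over all genes.

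**Figure D1:**
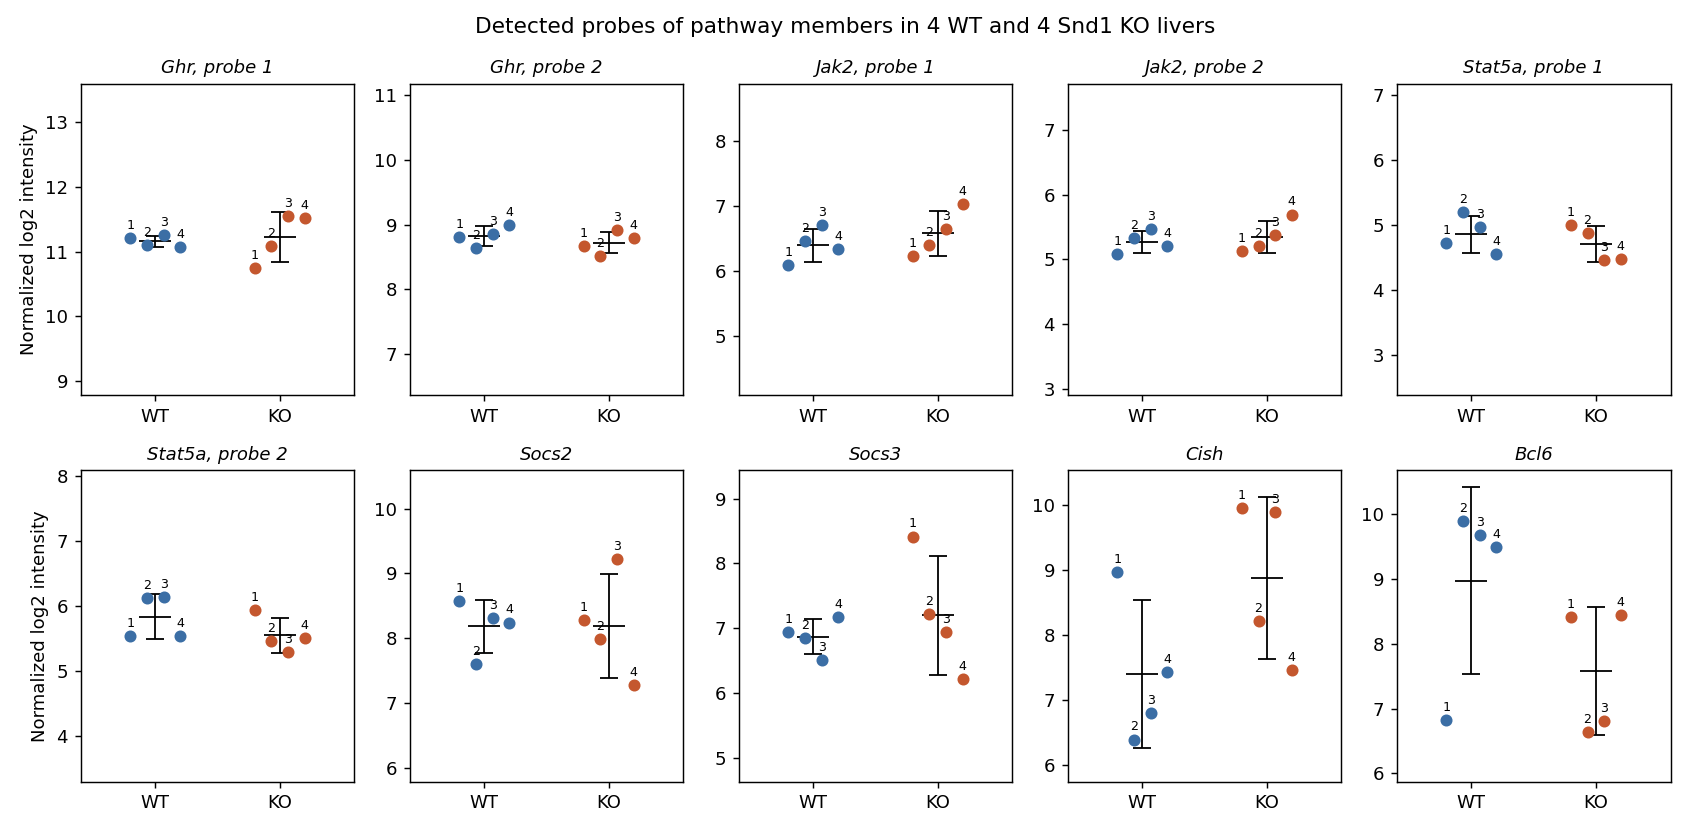
Normalized log2 intensity of each member probe detected on all 8 arrays, 1 panel per probe, with WT arrays in blue and KO arrays in orange, numbered by animal. Black bars give the mean and SD of 4 arrays, every y axis spans the same range, and for Stat5a probe 2 is the one in the test. Cish ranged over 2.59 log2 units in the WT and 2.50 in the KO and Bcl6 over 3.07 in the WT, while Ghr in the WT stayed between 11.07 and 11.26.

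The receptor and its kinase were detected on all arrays by 2 probes each, and their group means differed by less than the SD between animals. Ghr, the receptor itself, measured 11.21, 11.11, 11.26 and 11.07 log2 units in WT 1 to 4, and 10.74, 11.08, 11.55 and 11.51 in KO 1 to 4. The WT animals were within 1.14-fold of each other, while the KO animals reached both below and above them over a 1.75-fold range. Over all 8134 genes the median SD between animals was also higher in the KO (0.216) than in the WT (0.146). The KO minus WT difference was 0.062 ± 0.17 (SE, n = 4 per group, 95% interval -0.32 to 0.45, limma adjusted p = 0.899), and it was -0.13 under median scaling, so it has no settled direction. The second Ghr probe, annotated to another RefSeq transcript of the gene, had a difference of -0.10 ± 0.10 (adjusted p = 0.821 over 23978 probes). The interval of the tested probe leaves room for a KO level of Ghr between 0.80 and 1.36 times that of the WT.

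Jak2, the kinase bound to the receptor, measured 6.10, 6.46, 6.71 and 6.34 in WT 1 to 4, and 6.23, 6.41, 6.65 and 7.04 in KO 1 to 4. The groups overlapped except for KO 4, which was above every WT animal. Its log2 difference was 0.18 ± 0.19 (95% interval -0.23 to 0.59, adjusted p = 0.675), and 0.026 without KO 4. A dimmer Jak2 probe, for another transcript, gave 0.078 ± 0.14 and also had its highest value in KO 4 (5.69), and the third Jak2 probe was detected on no array.

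Stat5a was measured near the low end of the array's range, and Stat5b, which carries most of the growth hormone response in liver, was not detected. The Stat5a levels were 5.54, 6.12, 6.15 and 5.54 in WT 1 to 4 and 5.94, 5.46, 5.29 and 5.50 in KO 1 to 4. Of the KO animals 3 lay below every WT animal and KO 1 lay within the WT range. The log2 difference was -0.29 ± 0.19 (95% interval -0.71 to 0.13, adjusted p = 0.461), and the second Stat5a probe gave -0.15 ± 0.18. The Stat5b probe was detected on 0 of 8 arrays, with normalized values of 4.17 to 4.23 against a lowest detected level of 4.44 to 4.61 per array, so no level or fold is given.

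**Figure D2:**
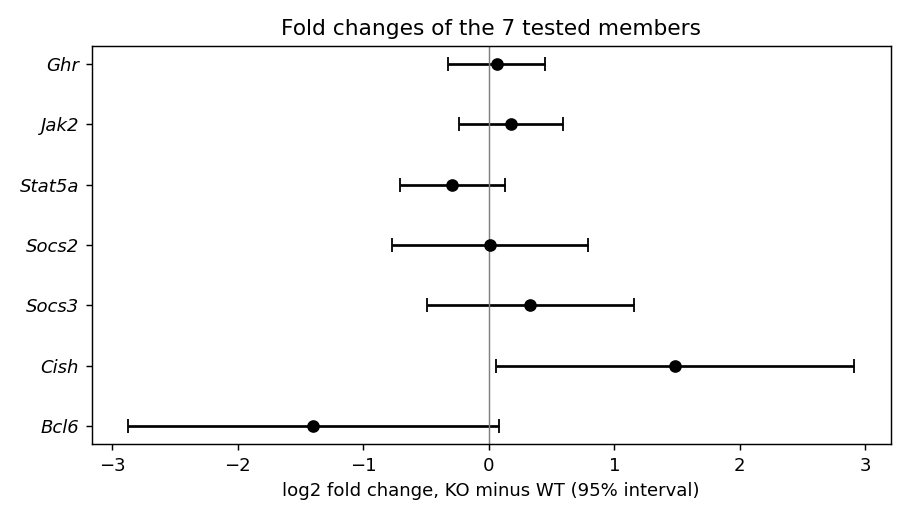
Log2 fold change, KO minus WT, of the 7 tested members, with points at the fitted value and bars for the 95% interval from limma. The intervals of Cish and Bcl6 are the widest, and that of Cish (0.057 to 2.91) is the 1 interval that leaves out 0. In the fit over all 23978 probes the interval of Cish (-0.23 to 3.20) includes 0.

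Of the feedback inhibitors, Cish had the largest difference between the groups. Cish, a target of STAT5 that binds the activated receptor, measured 8.97, 6.39, 6.79 and 7.42 in WT 1 to 4, and 9.95, 8.22, 9.90 and 7.45 in KO 1 to 4. All 4 KO animals were above the WT mean of 7.39 ± 1.14 (SD, n = 4), but WT 1 was above KO 2 and KO 4. The KO mean of 8.88 ± 1.25 (SD, n = 4) was higher by 1.48 ± 0.64 (SE), a 2.80-fold ratio with a 95% interval of 1.04 to 7.52. The unadjusted p from limma was 0.0429 and the adjusted p was 0.267, so Cish did not pass the test. In the fit over all 23978 probes the log2 interval of this probe was -0.23 to 3.20 (limma unadjusted p = 0.0805). Whether the interval of Cish leaves out 0 thus depends on the fit. With 1 array left out at a time the difference ran from 1.13 to 2.01 (adjusted p 0.109 to 0.524).

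Socs2, which limits growth hormone signalling and is a STAT5 target, had nearly equal means in both groups (8.18 and 8.19) but ranged more widely in the KO. It measured 8.58, 7.61, 8.31 and 8.24 in WT 1 to 4, and 8.29, 7.99, 9.22 and 7.28 in KO 1 to 4. The highest and the lowest of the 8 values were both KO animals, 3.84-fold apart, while the WT animals lay within 1.96-fold. A wider KO spread was not particular to Socs2, as the median SD of all genes was 0.216 in the KO and 0.146 in the WT. The log2 difference was 0.0088 ± 0.35 (95% interval -0.77 to 0.79, adjusted p = 0.994), and over the alternatives it ran from -0.33 without KO 3 to 0.76 with array weights (adjusted p = 0.0969), with -0.088 under median scaling and 0.42 without KO 1 and KO 4.

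Socs3, which also answers to interleukin 6 through STAT3, measured 6.94, 6.85, 6.52 and 7.17 in WT 1 to 4, and 8.42, 7.23, 6.95 and 6.21 in KO 1 to 4. KO 1 was the highest animal by more than 1 log2 unit and KO 4 the lowest. The log2 difference was 0.33 ± 0.37 (95% interval -0.49 to 1.16, adjusted p = 0.703), and it was -0.075 without KO 1. Socs1, an inhibitor best known from interferon signalling, was detected on WT 1 alone of the 8 arrays and was not tested.

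Bcl6, the repressor held down by growth hormone in liver, was lower in the KO on average, but 1 WT animal lay with the KO animals. It measured 6.83, 9.90, 9.68 and 9.49 in WT 1 to 4, and 8.41, 6.63, 6.81 and 8.44 in KO 1 to 4. WT 2, WT 3 and WT 4 were above every KO animal, while WT 1 was next to KO 2 and KO 3. The means were 8.97 ± 1.44 in the WT and 7.57 ± 0.99 in the KO (SD, n = 4 each), a log2 difference of -1.40 ± 0.67 (SE, 95% interval -2.88 to 0.079) or 2.64-fold lower. It did not pass the test (limma adjusted p = 0.312). Without WT 1 the difference was -2.11 and was called (adjusted p = 0.0441). The summed Kupffer cell marker level, on a log2 scale, was 11.13 in WT 1 and 11.51 to 11.85 in the other WT animals, and 11.00 to 11.43 in the KO animals. The 3 neutrophil markers had a summed level of 6.97 to 8.29 in the WT and 5.87 to 7.35 in the KO, with a WT 1 value of 7.47. The part of these cells in the levels of Bcl6 was not tested.

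**Figure D3:**
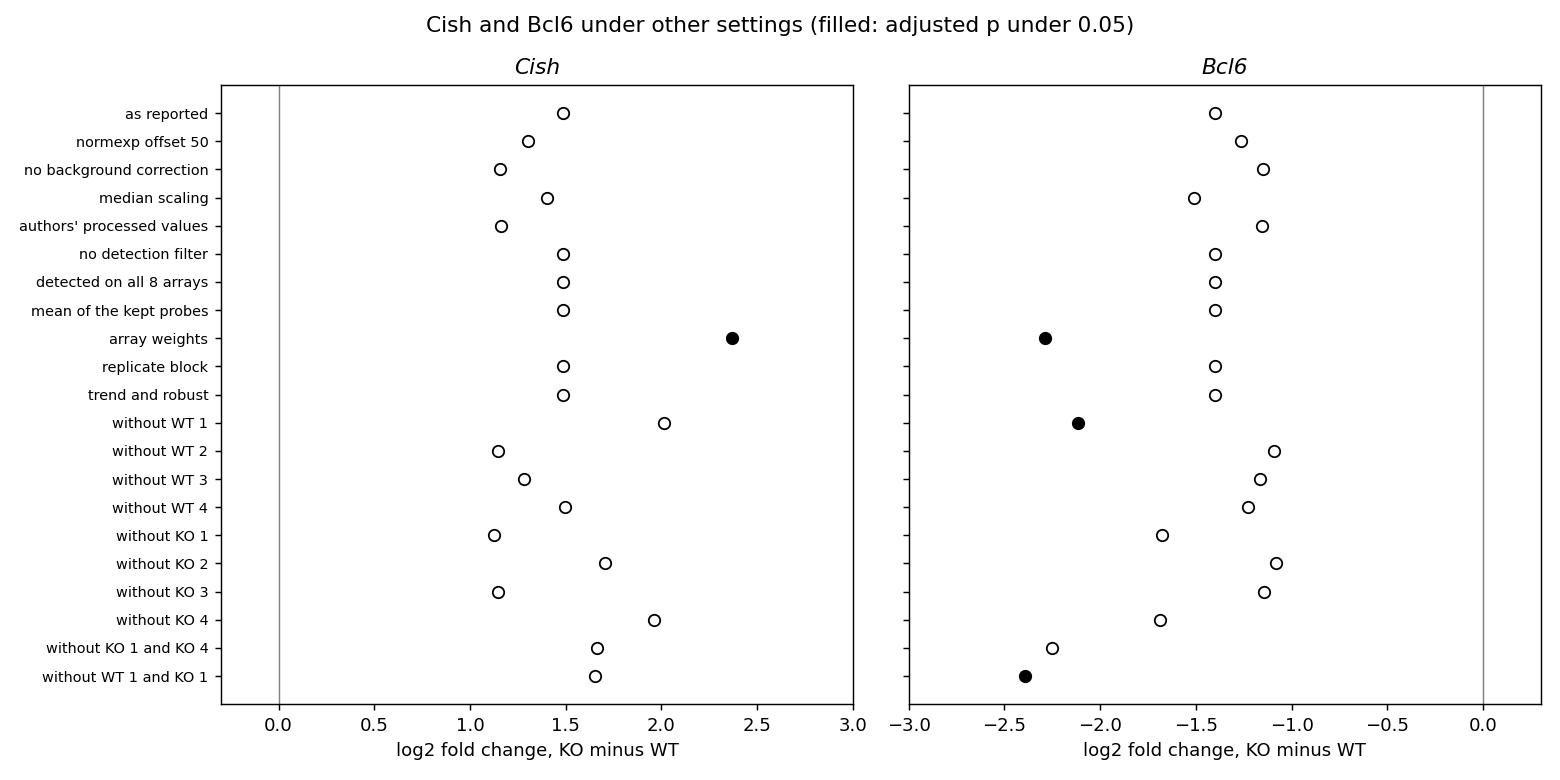
Log2 fold change, KO minus WT, of Cish (left) and Bcl6 (right) as reported and under each other setting, with 1 row per setting. Filled points have an adjusted p under 0.05. The direction was the same in all rows, Cish was called with array weights alone (2.37), and Bcl6 was called with array weights, without WT 1, and without WT 1 and KO 1 together.

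When arrays were weighted by how well they follow the fit, 3 members were called, Cish at 2.37 (adjusted p = 0.00598), Bcl6 at -2.29 (adjusted p = 0.00610) and Stat5a at -0.53 (adjusted p = 0.0239). With these weights 2190 of the 8134 genes were called. The weights were 4.80 for KO 3 and between 0.256 and 1.67 for the other 7 arrays, so KO 3 stood for most of the KO group.

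The members of the feedback arm differed more between animals of 1 group than most genes did. The spread was taken as the residual SD, the SD of log2 intensity among arrays of 1 group pooled over both groups, and its median over all 8134 genes was 0.198. Bcl6 (1.24) had the 6th highest residual SD of all genes and Cish (1.19) the 9th. Socs3 (0.676) was at place 113 and Socs2 (0.638) at place 136, while Stat5a (0.310), Jak2 (0.306) and Ghr (0.278) were at places 1386, 1432 and 1905. In the WT alone Bcl6 and Cish were at places 5 and 15 by SD, and in the KO alone at places 54 and 18. Bcl6 moved to place 64 without WT 1, Socs3 to place 489 without KO 1 and 1334 without KO 1 and KO 4, and Socs2 to place 502 without KO 3. Over all settings the places ran from 709 to 4038 for Ghr and from 620 to 4619 for Stat5a, while the residual SD of Cish stayed within the first 30 places under every setting tried. Animals of 1 group differed by up to 8.41-fold in Bcl6 and 6.01-fold in Cish, both in the WT.

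**Figure D4:**
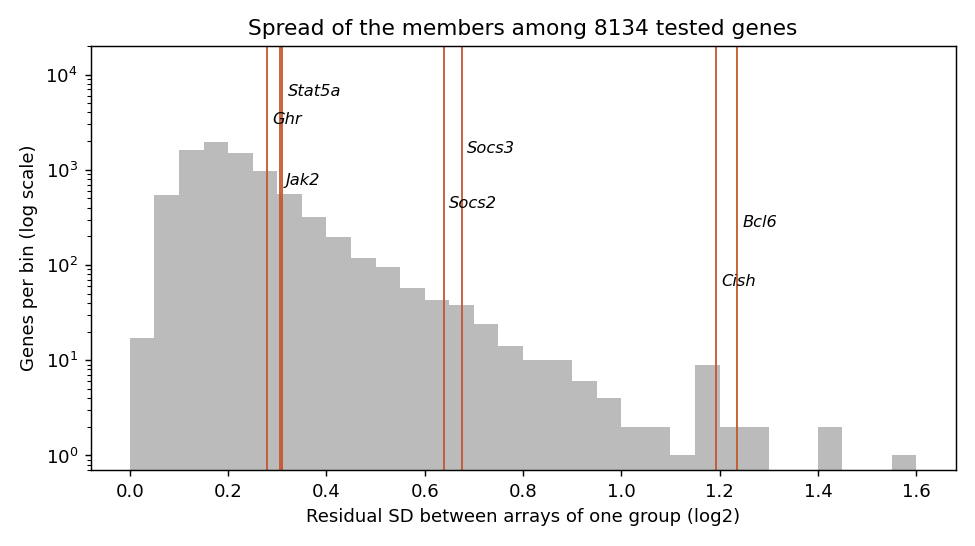
Number of genes per bin of 0.05 of the residual SD (log2 units) of all 8134 tested genes, on a log y axis, with a vertical line at each tested member. Bcl6 and Cish lie at the right end, Socs2 and Socs3 between 0.6 and 0.7, and Ghr, Jak2 and Stat5a near 0.3.

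Across the 8 animals Cish and Bcl6 ran opposite to each other, but the relation did not pass adjustment. It was not planned in advance, and other pairs had a lower p by Pearson's r. Pearson's r was -0.72 (exact permutation p = 0.0565, two-sided) and Spearman's rho was -0.79 (exact permutation p = 0.0279). Of 21 pairs among the 7 tested members none passed Benjamini-Hochberg adjustment, with 0.248 for the r and 0.291 for the rho of this pair. Without KO 1 and KO 3, the 2 animals farthest from the median of Cish, r was -0.91, and with the group means taken out it was -0.59. Under the other settings r ran from -0.89 to -0.63.

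The pairs with an unadjusted p under 0.05 by Pearson's r were Ghr with Socs3, Stat5a with Bcl6 and Ghr with Jak2. Ghr and Socs3 ran opposite to each other (r = -0.83, exact permutation p = 0.0111, adjusted 0.233, rho = -0.71 with p = 0.0576), and r was -0.92 without KO 1 and KO 3. Stat5a and Bcl6 ran together (r = 0.75, exact permutation p = 0.0343, adjusted 0.248, rho = 0.83 with p = 0.0154), but r was 0.45 without WT 2 and WT 3. Ghr and Jak2 had an r of 0.71 (exact permutation p = 0.0464, adjusted 0.248, rho = 0.69 with p = 0.0694), and 0.78 without KO 1 and KO 3. The arrays dimmer before normalization, KO 1 and KO 4, were at opposite ends of Socs3 among all 8 animals and of Jak2 among the KO animals, and the part of array brightness in these relations was not tested.

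**Figure D5:**
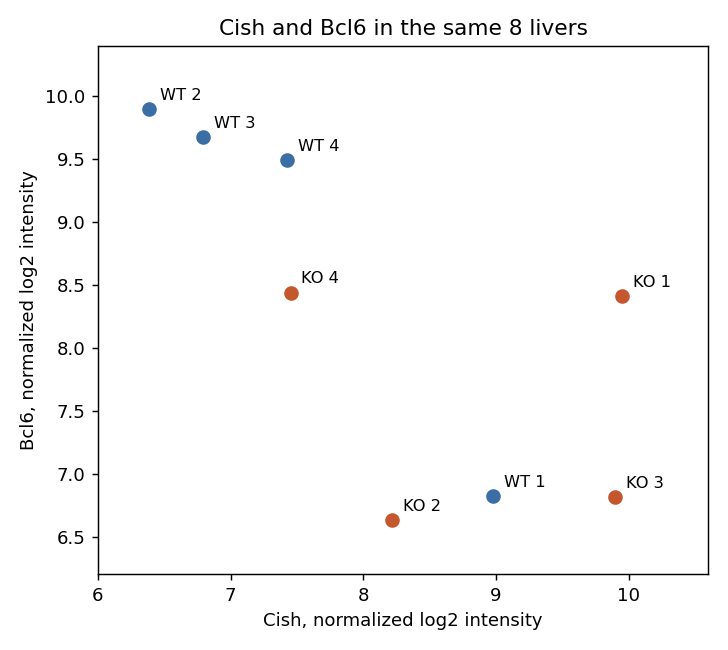
Normalized log2 intensity of Bcl6 (y axis) against Cish (x axis) in the 8 animals, WT in blue and KO in orange, each point labelled with its animal. WT 2, WT 3 and WT 4 lie at low Cish and high Bcl6, and WT 1 lies at the lower right between KO 2 and KO 3.

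The genes most like Cish over the 8 arrays were H2-Bl (r = 0.97), Gorasp2 (0.97) and Arpc5l (0.96), and those most like Bcl6 were Plpp3 (0.99), Trib3 (0.96) and Fbxo21 (0.95). None of these 6 was called. Plpp3 had a log2 difference of -0.32 ± 0.16, against -1.40 for Bcl6, so its pattern over the animals was close to that of Bcl6 with a smaller range. The nearest genes were Cwf19l2, Rnf14 and Ghitm for Ghr (0.98 to 0.99), Asah1, Klkb1 and Caprin1 for Jak2 (0.98), Itsn2, Hacd3 and Slc12a7 for Stat5a (0.94 to 0.95), Ndufs3, Vsig2 and Foxj3 for Socs2 (0.89 to 0.92), and Git2, Pex26 and Sec24c for Socs3 (0.96 to 0.97). Levels of H2-Bl, Trib3 and Vsig2 were near the lowest detected level of 4.44 to 4.61. Their WT and KO means were 4.47 and 4.76, 4.93 and 4.53, and 4.58 and 4.59, in that order. The correlations of this paragraph were picked as the highest over all other tested genes on 8 arrays and are given as a description.

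The rest of the JAK, STAT and SOCS families gave no call (0 of 9 tested genes, beside 2.54% of all genes, median log2 fold change -0.097). Socs5, a SOCS family member, had the lowest p of them with 0.36 ± 0.10 (adjusted p = 0.102). Its groups did not overlap, as for 1 of the 9 and 10.8% of all genes. Jak3, the kinase of lymphocyte cytokine receptors, had -0.43 ± 0.14 (adjusted p = 0.144). Socs5 (4.91 to 5.16 in the WT) and Jak3 (4.60 to 4.90 in the KO) lay near the lowest detected level of 4.44 to 4.61. Over the settings other than 1 array left out, Socs5 ran from 0.12 to 0.36 and Jak3 from -0.45 to -0.14. Stat3, the factor downstream of interleukin 6, had -0.49 ± 0.21 (adjusted p = 0.254). Stat3 was highest in WT 1 (9.69, against 8.91 to 9.08 in WT 2 to 4 and 8.33 to 8.97 in the KO), the animal that also stood apart in Bcl6. Stat2, an interferon signalling factor, had 0.26 ± 0.14 (adjusted p = 0.380).

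Adaptors and phosphatases that act on the receptor complex gave 0 calls among 11 tested genes, beside 2.54% of all genes (median 0.032). The lowest p was that of Gab1, a docking protein, at 0.51 ± 0.19 (adjusted p = 0.194), followed by the phosphatase Ptpn1 at -0.29 ± 0.14 (adjusted p = 0.305). The groups of Ptpn1 did not overlap, as for 1 of the 11 and 10.8% of all genes. Pias2 (0.20 ± 0.10) and Pias4 (0.15 ± 0.11), SUMO ligases that act on STAT proteins, had adjusted p of 0.365 and 0.517.

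Among 14 other receptors that use JAK kinases 1 rose and 0 fell (2.54% of all genes were called), with a median of 0.031. This was Lifr, the receptor of leukemia inhibitory factor, at 0.62 ± 0.14 (adjusted p = 0.0470). It measured 5.74, 5.35, 5.56 and 5.77 in WT 1 to 4 and 6.31, 6.47, 6.13 and 5.99 in KO 1 to 4, without overlap. Lifr was no longer called under 15 of 20 alternatives. Among them were leaving out KO 2, KO 3 or any single WT array (adjusted p up to 0.151), median scaling (0.240) and no background correction (log2 difference 0.28, adjusted p = 0.0635). Osmr (0.38 ± 0.13, adjusted p = 0.170), Ifngr1 (0.24 ± 0.11, adjusted p = 0.291) and Il15ra (-0.37 ± 0.21, adjusted p = 0.390) did not pass.

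Of 17 tested STAT5 target genes 1 rose and 2 fell, beside 2.54% of all genes called, with a median of -0.066. The groups did not overlap for 5 of the 17, beside 10.8% of all genes. The list was chosen with earlier results of these data known, so these shares are a description and cannot show an excess among STAT5 targets. Cyp7b1, an oxysterol hydroxylase higher in male than in female mouse liver, measured 12.45, 12.91, 12.83 and 12.58 in WT 1 to 4 and 11.29, 10.71, 10.67 and 10.70 in KO 1 to 4. Every KO animal was below every WT animal (-1.85 ± 0.17, adjusted p = 0.000802), and the call held with each array left out in turn (-2.00 to -1.78). Elovl3, a fatty acid elongase also higher in male liver, fell by 1.45 ± 0.22 on the log2 scale (adjusted p = 0.0105). Its adjusted p was 0.0536 without WT 3 and 0.0501 without the detection filter, and its log2 difference was -0.82 without background correction.

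Igfbp3, which carries IGF1 in plasma, measured 5.33, 5.52, 5.78 and 5.94 in WT 1 to 4 and 6.25, 6.46, 6.87 and 7.08 in KO 1 to 4. It rose by 1.02 ± 0.20 (adjusted p = 0.0285), and the call was lost without KO 3, without KO 4 or without any single WT array (adjusted p up to 0.0974). It was also lost under median scaling (0.98, adjusted p = 0.0871), without the detection filter (0.0768) and without background correction, where the log2 difference was 0.51 (adjusted p = 0.0546). Ccnd1, a cyclin, had 0.68 ± 0.17 (adjusted p = 0.0630). Igf1, the main growth gene under STAT5, measured 11.55 to 11.69 in the WT and 11.68, 11.62, 11.03 and 10.66 in KO 1 to 4. KO 1 and KO 2 were at the level of the WT and KO 3 and KO 4 below it, with a log2 difference of -0.38 ± 0.21 (adjusted p = 0.380). Igfals, its partner in plasma, had -0.064 ± 0.15 (adjusted p = 0.866).

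Transcription regulators that differ between the sexes in liver or act with STAT5 gave 0 calls among 7 tested genes, beside 2.54% of all genes (median 0.0048). The lowest p was that of Nr1i3, a receptor of foreign compounds, at -0.34 ± 0.24 (adjusted p = 0.499). Esr1 (0.30 ± 0.26), Foxa2 (0.23 ± 0.28) and Onecut2 (-0.14 ± 0.20) followed with adjusted p of 0.599 to 0.778.

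Lipid genes known to rise in mouse liver without STAT5 had a median log2 fold change of 0.56 over 10 tested genes, of which 1 rose and 0 fell (2.54% of all genes were called). The median was 0.31 without background correction and 0.20 without the detection filter. This list was also chosen with earlier results of these data known, so its median is a description. The gene that rose was Vldlr, a lipoprotein receptor, at 1.16 ± 0.19 (adjusted p = 0.0171). It was detected on 1 of 4 WT and 4 of 4 KO arrays, so it entered the test through the KO arrays. Its WT values (4.26 to 4.52) lay near the lowest detected level of the WT arrays (4.44 to 4.51), so its fold is not settled. With only genes detected on all 8 arrays the list had 0 calls. The Vldlr call was lost without WT 2, WT 3, WT 4 or KO 3 (adjusted p up to 0.067) and without the detection filter (0.0528). Without background correction the log2 difference of Vldlr was 0.38, still called. Srebf1, the factor that drives fatty acid synthesis, had 1.10 ± 0.25 (adjusted p = 0.0508) and was called without KO 1 (1.29, adjusted p = 0.0149). Lpl, the lipoprotein lipase, had 1.20 ± 0.33 (adjusted p = 0.0897) and was called without KO 1 (1.58, adjusted p = 0.000813). Scd1, a desaturase, had 0.64 ± 0.18 (adjusted p = 0.106) and was called without WT 1 (0.80, adjusted p = 0.0305). Pparg had -0.44 ± 0.16 (adjusted p = 0.179), against the sign of the list's median.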

How the data were processed

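RNA of 8 mouse livers (4 WT and 4 Snd1 KO), described as biological quadruplicates, was hybridized to Illumina MouseRef-8 v2.0 arrays, and groups were read from the titles. The table used here holds intensity on a linear scale as deposited, without normalization, beside a deposited detection p-value per probe. A deposited table of processed intensity served as an alternative. Per the study's methods, normalized intensities were compared by a 2-group test in Chipster. How they were normalized is not given in sources used here.

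One gene symbol was annotated for 23978 of 25697 probes, none for 1719 and several for 0. In R 4.3.3 with limma 3.58.1, background was corrected by normexp with control moments inferred from the detection p-value (offset 16), followed by quantile normalization and log2. Probes with a detection p under 0.05 on at least 4 of 8 arrays were kept (10945), and the brightest probe stood for a gene (8134). The groups were compared with lmFit and eBayes, two-sided, without covariate, adjusted by Benjamini-Hochberg over all genes. Every member probe was also tested among all 23978 probes. Tested on simulated data with 8134 genes, this comparison called 32.8%, 89.6% and 95.5% of genes with log2 changes of 0.5, 1 and 2, and 0.063% of unchanged genes. Whether genes as variable as Cish (residual SD 1.19) and Bcl6 (1.24) would be called at such changes was not tested. The simulation was 1 run with 66 or 67 genes per size of change. Its noise was independent between genes and arrays, with no shared array effect, so its percentages need not hold for these arrays. The median residual SD of all genes was 0.198. The number of arrays limits the precision.

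The members and gene lists were chosen with earlier results of these data known. Named were the members, up to 4 genes of lowest p per list and any called, and the 3 genes most correlated with each member. Igf1, Igfals and Pparg were named after their values were seen. Alternatives were other background, scaling, filter, probe, weight and test settings, the replicate number as a block, and arrays left out. Promoter sequences are from RefSeq (GRCm38.p6).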

Additional observations from a re-analysis of the deposited data

Results flagged for a closer look

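In 76 sets of 4 values examined, 4 held 1 animal far from the other 3 by Dixon's ratio at the 95% level, and chance gives about 1 in 20. Bcl6 was at 6.83 in WT 1 and at 9.49 to 9.90 in WT 2, WT 3 and WT 4. Stat5b was at 4.23 in WT 1 and 4.17 to 4.18 in the other WT animals, all below detection. Cyp7b1 was at 11.29 in KO 1 and 10.67 to 10.71 in the other KO animals. Lpl was at 8.44 in WT 1 and 8.96 to 9.05 in the other WT animals.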

How the results depend on the processing

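Cish stayed above 0 and Bcl6 below 0 under all 20 alternatives, and Jak2 and Stat5a also kept their direction. With array weights 2190 genes and 3 members were called (Cish 2.37, Bcl6 -2.29, Stat5a -0.53). Median scaling gave 97 genes and no detection filter 96, in place of 207, each with 0 members called. Median scaling turned Ghr to -0.13 and Socs2 to -0.088, and the mean of the kept probes turned Ghr to -0.019. With 1 array left out, 41 to 522 genes and 0 to 1 members were called, the 1 being Bcl6 without WT 1. Over these fits Ghr ran from -0.046 to 0.22, Socs2 from -0.33 to 0.31, Socs3 from -0.075 to 0.66, Stat5a from -0.42 to -0.19, Jak2 from 0.026 to 0.30, Cish from 1.13 to 2.01, Bcl6 from -2.11 to -1.08 and Onecut2 from -0.34 to 0.033. The dimmer Jak2 probe was at -0.037 to 0.15. Without WT 1 and KO 1 together, chosen after seeing the data, 556 genes were called and 1 member, Bcl6 (-2.39, adjusted p = 0.0131), and Socs3 turned to -0.050. The replicate number as a block gave 92 genes and changed no call of a member, with Cish at 1.48 ± 0.42 (adjusted p = 0.150). Deviations of same-numbered arrays from their group means had r of 0.089, -0.088, 0.12 and -0.010 over all genes. The study used littermates, but which of these animals were littermates is not given. These r cannot show whether animals were paired, and the main fit did not take the numbers as pairs. Array weights moved Socs2 to 0.76 and Ghr to 0.31, neither called. No background correction brought Snd1 to -1.07. The lipid gene list had between 0 and 7 calls and a median of 0.20 to 0.78 over the alternatives. The cause of these shifts was not tested. Low signal limits what can be said of Stat5a, Stat5b and Socs1, and of Vldlr in the WT.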
